A study of Mus musculus with 16 samples.

Results

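The p53 response and senescence genes described here are 9 mouse genes: Trp53, which encodes p53, and Mdm2, Cdkn1a, Ccng1, Bax, Trp53inp1, Gdf15, Cdkn2a and Cdkn2b. They were chosen by gene symbol, because they are well-known parts of the reply of cells to DNA damage, and they are 9 of the 49452 genes in the expression tables. Each of the 9 had a single row in every table. RNA was sequenced from tdTomato-positive cells that had been sorted out of the left lung lobe of 16 male mice, in 4 groups of 4. The question was how these genes responded to bleomycin, a drug that breaks DNA strands and is used to cause lung fibrosis in mice.

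Acta2-tdT mice carried Acta2-CreERT2; tdTomatoflox, in which Cre is driven by the promoter of the smooth muscle actin gene, and Pdgfra-tdT mice carried Pdgfra-CreERT2; tdTomatoflox, in which Cre is driven by the promoter of a receptor gene of fibroblasts. In both lines tamoxifen lets Cre switch on the red fluorescent protein tdTomato, and the label is kept by daughter cells. All mice, controls included, carried these alleles and received tamoxifen. The Acta2-tdT mice were given tamoxifen food at 400 mg/kg from day 5 after instillation, and the Pdgfra-tdT mice were given 5 injections of 3 mg at 6 weeks of age. Bleomycin or saline was instilled into the trachea, and cells were collected 14 days later, at 11 weeks of age. Mice are named by their numbers in the labels, 1 to 4 for saline and 5 to 8 for bleomycin. Tamoxifen was thus given differently in the lines, and this cannot be told apart from the line in any comparison of the lines.

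Protein p53 is a transcription factor that is held at a low level by the ubiquitin ligase MDM2 and builds up after DNA damage. It raises transcription of genes that stop the cell cycle, such as Cdkn1a, of genes that promote apoptosis, such as Bax, and of Mdm2 itself, which closes a feedback loop. The INK4 inhibitors made from Cdkn2a and Cdkn2b stop the cell cycle through the retinoblastoma protein, and Cdkn2a also encodes an inhibitor of MDM2; a lasting arrest of this kind is called senescence.

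Promoter sequences were read because p53 is known to act on several of these genes by binding DNA. The p53 consensus decamer, a motif of 10 bases that reads as the same pattern on both strands, was searched in the 250 bases upstream of each RefSeq start site of GRCm38.p6. Of 32851 such windows over all genes, 2341 (7.13%) held at least 1 decamer, and 21 (0.0639%) held a pair no more than 13 bases apart. The 9 genes had 11 windows for 8 of them, and Trp53inp1 had none in the table used. A decamer was present in the windows of 5 genes, shown here with 25 bases on each side to set out where it lies, in lower case with the decamer in capitals. The windows of Cdkn2a, Cdkn2b and Gdf15 and the downstream start site of Cdkn1a held none, which says only that these letters are not in these windows.
Cdkn1a, chr17:29090881-29090962, plus strand: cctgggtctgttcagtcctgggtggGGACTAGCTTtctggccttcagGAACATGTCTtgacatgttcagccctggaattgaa
Mdm2, chr10:117710910-117710969, minus strand: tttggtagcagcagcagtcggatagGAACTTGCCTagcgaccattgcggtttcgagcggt
Bax, chr7:45467065-45467124, minus strand: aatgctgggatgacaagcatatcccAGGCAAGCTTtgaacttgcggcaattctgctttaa
Ccng1, chr11:40755437-40755496, minus strand: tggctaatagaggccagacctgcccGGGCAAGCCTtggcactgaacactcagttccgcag
Trp53, chr11:69580259-69580318, plus strand: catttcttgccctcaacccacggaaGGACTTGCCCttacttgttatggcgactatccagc

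The decamer began 201 bases upstream of the start site in Bax, 186 in Mdm2, 185 in Ccng1 and 75 in Trp53. Upstream of the first Cdkn1a start site lay a pair, beginning at 73 and 51 bases with 12 bases between them. The Bax window lay within the annotated gene Gm45808, in none of its exons, and the other 4 lay in no annotated gene. These matches are a description of the sequence and were not tested as binding sites.

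Values are FPKM, sequenced fragments corrected for transcript length and for the number of mapped fragments, as deposited for each mouse. FPKM carry no read counts, so the depth is unknown. The summed FPKM of nuclear protein-coding genes differed strongly between groups. In Acta2-tdT mice it ranged from 36688 to 60947 after saline but from 241916 to 466183 after bleomycin, and in Pdgfra-tdT mice from 29964 to 61168 after saline and from 29727 to 147467 after bleomycin. All 9 genes were therefore read on 2 scales, the deposited FPKM and the FPKM multiplied so that this sum was the same in every mouse, called scaled FPKM. As a gauge of signal from genes that lung cells do not use, the median FPKM of 1412 olfactory and vomeronasal receptor genes ranged from 0.321 to 0.329 in Acta2-tdT mice given saline and from 0.0129 to 0.120 in those given bleomycin. Pdgfra-tdT mice had 0.173 to 0.333 after saline, against 0.0919 to 0.314 after bleomycin. Values under about 0.3 FPKM thus lay near this gauge in most mice outside Acta2-tdT bleomycin, where the gauge was lower. It was also lower in Pdgfra-tdT saline mouse 3, at 0.173, and Pdgfra-tdT bleomycin mouse 5, at 0.0919.

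The sorted cells were compared with marker genes of lung cell types. Acta2 itself was at 139 to 314 FPKM in the Acta2-tdT saline mice, compared with 2.59 to 11.0 FPKM in the Pdgfra-tdT saline mice. The 14 leukocyte markers summed to 1198 to 1697 scaled FPKM in Acta2-tdT saline, more than the 469 to 677 of the 10 smooth muscle markers. Pdgfra itself was low, at 2.14 to 3.82 FPKM in Pdgfra-tdT saline and 0.977 to 2.45 FPKM in Pdgfra-tdT bleomycin. The 10 fibroblast markers, summed as scaled FPKM, reached 13.8 to 50.7 in Pdgfra-tdT saline and 6.17 to 58.4 in Pdgfra-tdT bleomycin, below the 244 to 382 of Acta2-tdT bleomycin, and between 0 and 2 of the 10 were at 0 in each Pdgfra-tdT mouse. The libraries labelled Pdgfra-tdT were thus low in the markers of the cells the label names. The 12 macrophage markers summed to 127 to 406 after saline and 1569 to 2344 after bleomycin in Acta2-tdT, against 60.5 to 219 and 832 to 3696 in Pdgfra-tdT, with none of the 12 at 0 in any mouse. Libraries 3 of Pdgfra-tdT saline and 5 of Pdgfra-tdT bleomycin stood apart from their groups by their nuclear protein-coding sums and by the 10 endothelial markers, at 612 and 561 scaled FPKM. The other Pdgfra-tdT mice were at 12.2 to 30.2 with saline and at 12.7 to 176 with bleomycin. Counts of called genes among the 9 that rest on these libraries are also given without them.

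In Acta2-tdT mice, bleomycin went with higher deposited FPKM of 8 of the 9 genes without overlap of the groups, as in 45.0% of all nuclear protein-coding genes. After scaling 5 of the 9 were higher, against 12.7% of all, and 1 was lower, against 33.6% of all. Cdkn1a, the p21 inhibitor of cyclin-dependent kinases, had the largest difference of log2(FPKM + 1) on both scales (4.49 and 1.66), but with a pseudocount of 0.1 in place of 1 Cdkn2b came first, at 5.38 against 4.83 as deposited and 2.48 against 1.87 scaled. Trp53, Mdm2, Bax and Cdkn2b were the others above saline on both scales. Trp53inp1 changed its direction between the scales, Ccng1 and Gdf15 were above saline as deposited and overlapped it after scaling, and Cdkn2a was below 1 FPKM in every mouse. In bulk libraries, a smaller share of cells of a type and less RNA per cell cannot be told apart, and this holds for every difference given below.

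Trp53 encodes the transcription factor itself (ENSMUSG00000059552, chr11:69580359-69591873, GRCm38). Its deposited level was 1.38, 0.617, 2.51 and 3.44 FPKM in Acta2-tdT saline mice 1 to 4 and 27.1, 17.6, 44.1 and 53.3 FPKM in bleomycin mice 5 to 8. Scaled, these were 1.89, 0.874, 2.63 and 2.93 against 4.33, 3.79, 5.20 and 5.94. Every bleomycin mouse lay above every saline mouse on both scales, and by rank among nuclear protein-coding genes, at the 91.0 to 93.4 percentile against the 72.8 to 90.7 percentile. Mdm2 encodes the ubiquitin ligase that marks p53 for destruction (ENSMUSG00000020184, chr10:117688888-117710758). It was at 0.635, 0.451, 0.515 and 1.22 FPKM with saline and at 9.09, 7.34, 13.3 and 10.4 FPKM with bleomycin. Scaled levels of Mdm2 were 0.870, 0.639, 0.540 and 1.04 against 1.45, 1.58, 1.57 and 1.15. The groups were apart on both scales, after scaling by the narrow gap between saline mouse 4 and bleomycin mouse 8, and by rank (62.1 to 77.1 against 79.6 to 83.1 percentile).

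Cdkn1a encodes the kinase inhibitor p21 that arrests the cell cycle (ENSMUSG00000023067, chr17:29090979-29100722). It was at 1.97, 1.90, 5.41 and 7.78 FPKM with saline and at 87.3, 54.5, 142 and 175 FPKM with bleomycin. Scaled, it was at 2.69, 2.70, 5.67 and 6.64 against 14.0, 11.7, 16.7 and 19.5. Even the lowest bleomycin mouse was above the highest saline mouse, on both scales. Among nuclear protein-coding genes of the same mouse, Cdkn1a stood at the 91.0 to 95.8 percentile with saline and at the 96.6 to 97.9 percentile with bleomycin, a reading that needs no scaling. Ccng1 encodes cyclin G1, a p53 target that takes part in the feedback on p53 (ENSMUSG00000020326, chr11:40748552-40755311). It was at 0.535, 0.370, 0.942 and 0.979 FPKM with saline and at 8.45, 4.96, 6.27 and 6.25 FPKM with bleomycin, and scaled at 0.733, 0.525, 0.988 and 0.835 against 1.35, 1.07, 0.740 and 0.697. Its groups were apart as deposited and overlapped after scaling.

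Bax encodes a pore-forming protein of the mitochondrial outer membrane that promotes apoptosis (ENSMUSG00000003873, chr7:45461697-45466898). Its region overlaps another annotated protein-coding gene, RP23-218K15.5, so reads of the 2 may not be told apart. It was at 4.06, 4.25, 9.19 and 15.2 FPKM with saline and at 102, 64.5, 195 and 174 FPKM with bleomycin. Scaled, it was at 5.56, 6.01, 9.64 and 13 against 16.4, 13.9, 23.0 and 19.4. The groups were apart on both scales, but by rank they overlapped, at the 95.8 to 97.9 percentile with saline and 97.2 to 98.2 with bleomycin. Trp53inp1 encodes a p53-induced nuclear protein that promotes apoptosis (ENSMUSG00000028211, chr4:11156431-11174379). It was at 0.555, 0.483, 0.671 and 0.811 FPKM with saline and at 2.62, 1.83, 1.49 and 1.36 FPKM with bleomycin. Scaled, the same mice were at 0.761, 0.685, 0.704 and 0.692 against 0.420, 0.393, 0.176 and 0.151. The order of the groups was thus opposite on the 2 scales, without overlap on either, and the saline values were not far above the receptor gauge. Ranks followed the scaled values, with the 66.0 to 69.0 percentile for saline and the 54.8 to 65.8 percentile for bleomycin.

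Gdf15 encodes a secreted stress protein of the TGF-beta family (ENSMUSG00000038508, chr8:70629393-70632456). It was at 1.08, 0.173, 0.874 and 1.06 FPKM with saline and at 2.04, 7.29, 6.55 and 11.2 FPKM with bleomycin. Scaled, it was at 1.48, 0.245, 0.917 and 0.901 against 0.326, 1.57, 0.773 and 1.25, and the groups overlapped. Cdkn2b encodes p15Ink4b, an inhibitor of CDK4 and CDK6 (ENSMUSG00000073802, chr4:89306289-89311032). It was at 0.516, 0.401, 0.142 and 0.118 FPKM with saline, near the receptor gauge, and at 21.0, 12.9, 14.2 and 12.4 FPKM with bleomycin. Scaled, it was at 0.707, 0.569, 0.148 and 0.10 against 3.36, 2.77, 1.68 and 1.38. Its groups were apart on both scales and by rank, from the 24.7 to 65.2 percentile with saline to the 81.6 to 90.3 percentile with bleomycin. Cdkn2a encodes p16Ink4a and p19Arf, which share a single row here (ENSMUSG00000044303, chr4:89274471-89294653). It was listed at 0 in 3 of 4 saline mice and at 0.0958 FPKM in mouse 3, and at 0.200, 0, 0.356 and 0.860 FPKM with bleomycin. In bleomycin mouse 8 its lower bound was 0.10 FPKM, in the other 3 it was 0, and 3 of the 4 lay above the receptor median of their own mouse. The groups overlapped.

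**Figure D1:**
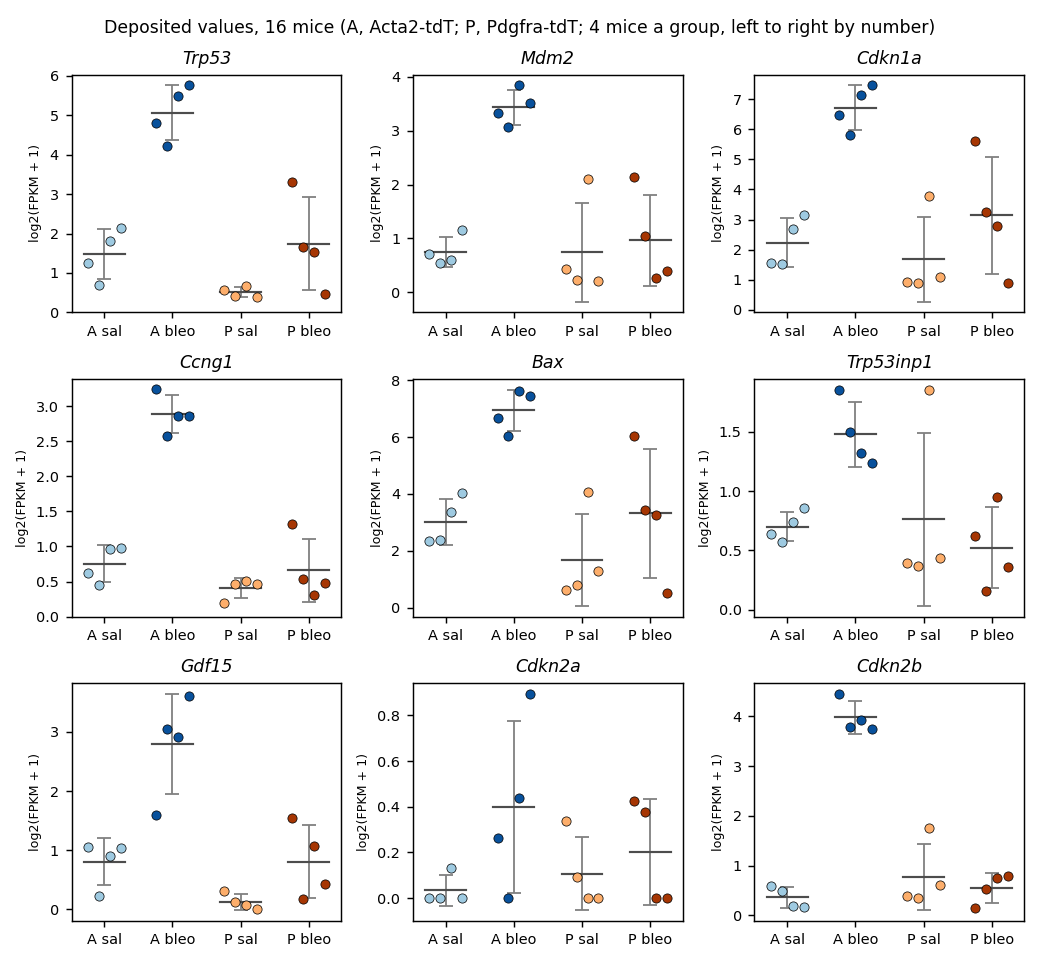
Deposited log2(FPKM + 1) of the 9 genes in each of the 16 mice (points, 4 a group), with the group mean (line) and SD (bars). For 8 genes all 4 Acta2-tdT bleomycin mice sit above the Acta2-tdT saline mice, while in Pdgfra-tdT 1 saline mouse and 1 bleomycin mouse are the highest of their groups for Cdkn1a, Bax and Mdm2.

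**Figure D2:**
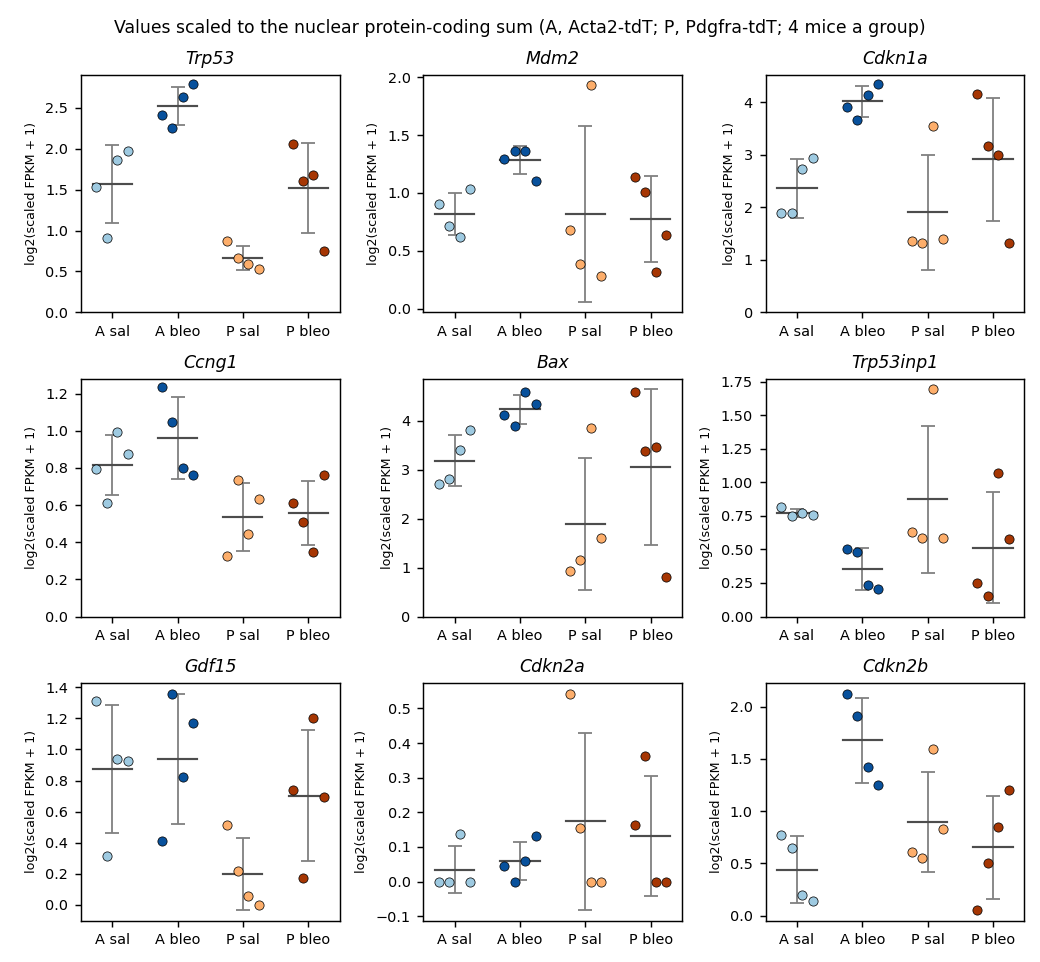
The same mice as log2 of scaled FPKM + 1, with group mean (line) and SD (bars). Acta2-tdT bleomycin mice remain above saline mice for Trp53, Mdm2, Cdkn1a, Bax and Cdkn2b, overlap them for Ccng1, Gdf15 and Cdkn2a, and lie below them for Trp53inp1.

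Differences were tested with limma on log2(FPKM + 1) over all genes with at least 1 FPKM in at least 4 of the 8 mice, at a Benjamini-Hochberg adjusted p under 0.05. With 8 mice, p-values measure the spread between these libraries. On deposited FPKM 8 of the 9 genes passed the filter and 8 were called higher with bleomycin, where 70.4% of all 12523 tested genes were called higher. Only Cdkn1a and Bax would have passed the filter on the saline mice alone, so the other 6 entered through the group in which they were high, and the count over the tested genes is a description. Without any filter all 9 genes were fitted and 8 were called higher, against 23.8% of all 42342 genes. The log2 fold changes on deposited FPKM were 4.49 for Cdkn1a (SE 0.52), 3.92 for Bax (SE 0.52), 3.62 for Cdkn2b (SE 0.26) and 3.60 for Trp53 (SE 0.45). They were 2.68 for Mdm2 (SE 0.27), 2.13 for Ccng1 (SE 0.25), 1.99 for Gdf15 (SE 0.41) and 0.78 for Trp53inp1 (SE 0.19). The median over all tested genes was 1.76, so Trp53inp1 rose by less than the typical gene, and Ccng1 and Gdf15 lay 0.37 and 0.22 above it. Cdkn1a lay 2.73, Bax 2.16, Cdkn2b 1.86, Trp53 1.83 and Mdm2 0.92 above this median.

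After scaling, the median over all 7996 tested genes was -0.05, and 29.6% of them were called higher. Of the 9 genes, 5 passed the filter, and each of the 5 was called higher. Here too only Cdkn1a and Bax would have passed on the saline mice alone, so this count is also a description. Cdkn1a rose by 1.66 on the log2 scale (SE 0.31, adjusted p = 0.00106), Cdkn2b by 1.24 (SE 0.23, adjusted p = 0.00107) and Bax by 1.05 (SE 0.31, adjusted p = 0.0126). Trp53 rose by 0.96 (SE 0.27, adjusted p = 0.00978) and Mdm2 by 0.47 (SE 0.13, adjusted p = 0.0118). Without a filter, the same 5 genes were called higher, against 6.45% of all 42342 genes, and Trp53inp1 was called lower, against 33.5%. Its log2 fold change was -0.42 (adjusted p = 0.0185), and the median scaled FPKM of the receptor genes moved the same way, being 0.274 to 0.462 with saline but 0.00144 to 0.0257 with bleomycin; the part of this in the result was not tested. Ccng1 (0.14), Gdf15 (0.07) and Cdkn2a (0.02) were not called there, with adjusted p = 0.43, 0.84 and 0.62. In a fit of all 16 mice together, Bax (adjusted p = 0.233) and Mdm2 (adjusted p = 0.193) were no longer called, which left 3 of 5, and 4202 of all 7996 genes were called against 5542. Counted by groups that do not overlap, 8 of the 9 genes were higher and 0 lower as deposited, where 45.0% of 21201 nuclear protein-coding genes were higher and 10.3% lower. After scaling, 5 were higher (12.7% of all) and 1, Trp53inp1, was lower (33.6% of all). By rank within the mouse, Trp53, Mdm2, Cdkn1a and Cdkn2b were higher (18.5% of all) and Trp53inp1 was lower (15.5% of all).

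Macrophage markers were higher in the same mice. Of the 12 macrophage markers, 9 were tested on the scaled values and 9 were called higher, with a median log2 fold change of 2.04. The 14 leukocyte markers summed to less, at 652 to 1186 scaled FPKM after bleomycin against 1198 to 1697 after saline. Of 10 leukocyte markers tested, 4 were called higher and 2 lower. The 10 endothelial markers summed to 18.6 to 21.4 after saline and 6.83 to 11.8 after bleomycin, with 3 of 4 tested called lower. Over all tested genes, 29.6% were called higher and 39.7% lower. The part of macrophage RNA in the levels of Cdkn1a, Bax and the other genes was not tested. The smooth muscle markers summed to 431 to 672 scaled FPKM after bleomycin, inside or just under the saline range, and the fibroblast markers to 31.8 to 38.0 after saline against the higher sums after bleomycin given above.

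The levels of the 9 genes can be ordered within a group, since FPKM are per length. In Acta2-tdT bleomycin the mean scaled FPKM was 18.2 ± 3.96 for Bax and 15.5 ± 3.36 for Cdkn1a (SD, n = 4), which overlapped. Trp53 followed at 4.82 ± 0.949, then Cdkn2b at 2.30 ± 0.924 and Mdm2 at 1.44 ± 0.198, and the values of Cdkn2b and Mdm2 overlapped. Gdf15 at 0.978 ± 0.543 and Ccng1 at 0.964 ± 0.307 were not separable, and both overlapped Mdm2. The means of Trp53inp1 at 0.285 ± 0.141 and Cdkn2a at 0.0425 ± 0.0399 were lowest. The values of Gdf15 also overlapped those of Cdkn2b and Trp53inp1. In Acta2-tdT saline the order of the means began in the same way, with 8.55 ± 3.48 for Bax, 4.42 ± 2.04 for Cdkn1a and 2.08 ± 0.915 for Trp53 (SD, n = 4). The values of Bax and Cdkn1a overlapped, as did those of Cdkn1a and Trp53. The means of Mdm2, Ccng1, Trp53inp1 and Gdf15 lay together between 0.710 and 0.886.

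In Pdgfra-tdT mice, limma called none of the 9 genes. Cdkn1a and Bax were higher in 3 of 4 bleomycin mice than in 3 of 4 saline mice, but the groups overlapped for all 9. Only these 2 passed the filter. Cdkn1a was at 0.906, 0.865, 12.6 and 1.13 FPKM in saline mice 1 to 4 and at 47.9, 8.44, 5.91 and 0.864 FPKM in bleomycin mice 5 to 8. Bax was at 0.523, 0.718, 15.9 and 1.41 FPKM against 65.2, 9.87, 8.48 and 0.429 FPKM. Saline mouse 3 was high and bleomycin mouse 8 low for both genes. Scaled, Cdkn1a was at 1.57, 1.5, 10.7 and 1.63 against 16.9, 8.06, 6.96 and 1.51, and Bax at 0.907, 1.24, 13.5 and 2.03 against 23.0, 9.43, 9.98 and 0.750. The same mice stood out as on the deposited scale. The endothelial marker sums of the same mice, 30.2, 12.2, 612 and 16.9 with saline and 561, 176, 69.0 and 12.7 with bleomycin, were likewise highest in saline mouse 3 and bleomycin mouse 5. The 14 leukocyte markers summed to 246, 123, 46.3 and 152 scaled FPKM with saline and 1207, 1793, 1559 and 711 with bleomycin. Saline mouse 3 and bleomycin mouse 8 had the lowest leukocyte sums of their groups. The part of either set of markers in the levels was not tested.

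The log2 fold change in Pdgfra-tdT was 1.46 for Cdkn1a (SE 1.07) and 1.63 for Bax (SE 1.23) on deposited FPKM, each with an adjusted p = 0.791 by limma. Scaled, it was 1.01 for Cdkn1a (SE 0.78) and 1.17 for Bax (SE 0.92), each with an adjusted p = 0.766. These values moved with single mice: as deposited, Cdkn1a went from 0.64 without Pdgfra-tdT bleomycin mouse 5 to 2.21 without bleomycin mouse 8, and Bax from 0.72 to 2.56 without the same mice. Without saline mouse 3 they were 2.16 and 2.43. Scaled, Cdkn1a went from 0.59 without bleomycin mouse 5 to 1.56 without saline mouse 3, and Bax from 0.66 without bleomycin mouse 5 to 1.92 without bleomycin mouse 8. Neither gene was called in any of these refits. None of the 9 genes was called on either scale, and 0 of the 2 tested had an unadjusted p under 0.05. Over all genes, limma called 0.124% of 7275 on deposited FPKM and 0.106% of 9433 on scaled FPKM, and the scaled median was -0.28. With sample quality weights, which let limma count the more variable libraries less, both were called on the scaled values, at 1.67 for Cdkn1a (adjusted p = 0.0172) and 2.02 for Bax (adjusted p = 0.0186). With these weights 3587 of all 9433 genes were called, against 10 without them. This was the only alternative tried that changed a call here. Without saline mouse 3 and bleomycin mouse 5, an alternative chosen after seeing the data, neither was called, and 19 of 7275 genes were called as deposited and 23 of 9433 scaled.

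Trp53 was below 1 FPKM in every Pdgfra-tdT saline mouse, at 0.480, 0.336, 0.6 and 0.308, and reached 8.98, 2.13, 1.88 and 0.393 FPKM with bleomycin. Scaled, it was at 0.832, 0.582, 0.510 and 0.444 against 3.16, 2.04, 2.21 and 0.687. Bleomycin mouse 8 lay within the saline range and the other 3 above it. Without a filter, the fold changes in Pdgfra-tdT were 1.23 as deposited and 0.86 scaled for Trp53, with adjusted p = 0.841 and 0.828. Mdm2 was at 0.345, 0.179, 3.30 and 0.151 FPKM against 3.40, 1.05, 0.209 and 0.319 FPKM, and again saline mouse 3 and bleomycin mouse 5 were highest. Gdf15 was at 0.248, 0.0933, 0.0486 and 0 FPKM against 1.90, 0.134, 1.11 and 0.355 FPKM. All 4 saline values of Gdf15 were under the receptor gauge of their own mouse. Ccng1 (0.147 to 0.422 FPKM with saline, 0.232 to 1.5 with bleomycin) and Cdkn2a (0 to 0.263 and 0 to 0.341) were low in both groups. Trp53inp1 (0.290 to 2.62 and 0.115 to 0.931) and Cdkn2b (0.269 to 2.38 and 0.107 to 0.742) were low except in saline mouse 3, which had the highest value of each. Deposited log2 fold changes without a filter were 0.25 for Ccng1, -0.24 for Trp53inp1, 0.09 for Cdkn2a and -0.22 for Cdkn2b, beside 0.22 for Mdm2 and 0.68 for Gdf15. Scaled, they were 0.02 for Ccng1, -0.36 for Trp53inp1, -0.04 for Cdkn2a, -0.24 for Cdkn2b, -0.05 for Mdm2 and 0.51 for Gdf15. The highest Cdkn2b value of a Pdgfra-tdT bleomycin mouse, 0.742 FPKM, was below that of every Acta2-tdT bleomycin mouse, from 12.4 FPKM. Scaled, the gap was narrow, at 1.30 against 1.38. The share of all genes without overlap between these groups was not counted.

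**Figure D3:**
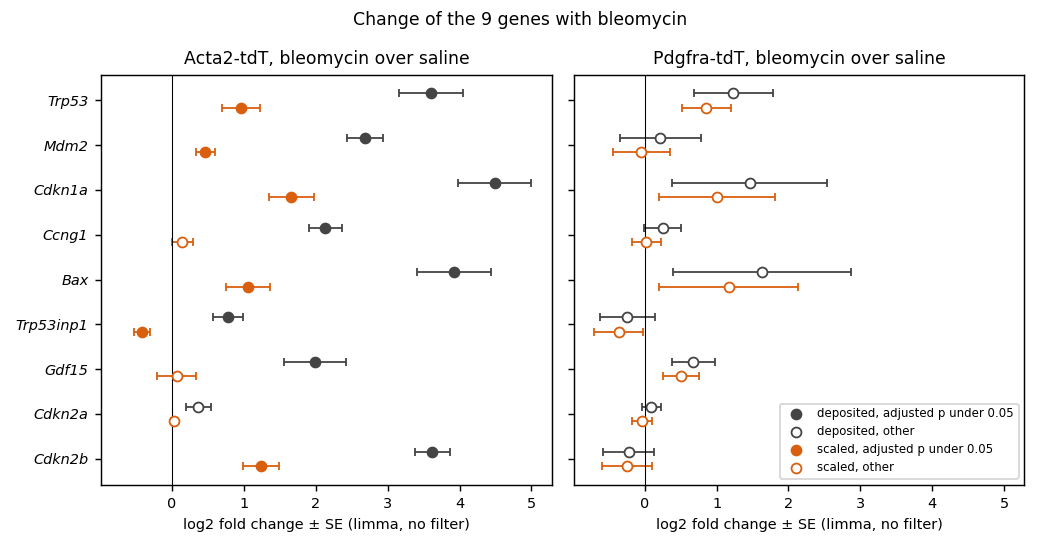
Log2 fold change of the 9 genes, bleomycin over saline, with SE (bars), from limma without a filter so that every gene is shown, for deposited (grey) and scaled (orange) FPKM; filled points have an adjusted p under 0.05. Acta2-tdT has 8 filled deposited points and 6 filled scaled points, of which Trp53inp1 lies below 0, and Pdgfra-tdT has none.

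Whether bleomycin acted differently in the 2 lines was tested by the interaction of line and treatment over all 16 mice. On deposited FPKM the difference of the log2 fold changes, Acta2-tdT minus Pdgfra-tdT, was called for 4 of 8 tested genes, where 36.6% of 16605 genes were called higher and the median difference was 1.05. It was 3.84 for Cdkn2b (SE 0.44, adjusted p = 4.08e-05), 2.47 for Mdm2 (SE 0.64, adjusted p = 0.00806), 1.88 for Ccng1 (SE 0.35, adjusted p = 0.00103) and 2.37 for Trp53 (SE 0.75, adjusted p = 0.0220). With a pseudocount of 0.1, Trp53 (adjusted p = 0.132) and Mdm2 (adjusted p = 0.0673) were no longer called, and after quantile normalization Trp53 (adjusted p = 0.621), Mdm2 (adjusted p = 0.221) and Ccng1 (adjusted p = 0.132) were not. Without a filter 3 of the 9 were called, against 11.4%, and Trp53 had an adjusted p = 0.0517 and Cdkn2a a difference of 0.27 (adjusted p = 0.498). Cdkn1a (3.03, SE 1.26), Gdf15 (1.31, SE 0.55) and Trp53inp1 (1.02, SE 0.43) had adjusted p between 0.0665 and 0.0692, and Bax (2.29, SE 1.42) had an adjusted p = 0.201. Without Pdgfra-tdT bleomycin mouse 5, 7 of 8 were called, and the calls over all genes went from 6605 to 9330 of 16605. Without Pdgfra-tdT saline mouse 3, 4 of 8 were called and 5628 of all genes. On scaled FPKM, limma called 0 of 6 tested genes, with 1.90% of 14257 genes called and a median of -0.42 over all genes. Without a filter it called 0 of 9, against 0.281% of all genes called higher. Without bleomycin mouse 5 it called 0 of 6 and 2000 of all 14257 genes, with an adjusted p = 0.0547 for Cdkn2b, and without saline mouse 3 it called 0 of 6 and 302 of all. Among the 6, only Cdkn2b had an unadjusted p under 0.05, with a difference of 1.48 (SE 0.43, adjusted p = 0.0925). The scaled differences of Trp53 (0.10, SE 0.44), Bax (-0.12, SE 1.06), Cdkn1a (0.65, SE 0.87), Mdm2 (0.51, SE 0.44) and Gdf15 (-0.44, SE 0.38) had unadjusted p from 0.263 to 0.913. Without a filter, the scaled differences of Ccng1 (0.12), Cdkn2a (0.07) and Trp53inp1 (-0.06) were not called. Scaled to the sum over all genes in place of nuclear protein-coding genes, Cdkn2b was called, at 2.28 (adjusted p = 0.00371), as were 1351 of all 14662 genes.

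Between the lines, saline-treated mice differed in none of the 9 genes by the test. Only Cdkn1a and Bax passed the filter, with log2 differences, Acta2-tdT over Pdgfra-tdT, of 0.56 (SE 0.72, adjusted p = 0.787) and 1.34 (SE 0.81, adjusted p = 0.524) on deposited FPKM. Scaled, these were 0.45 (SE 0.57) and 1.30 (SE 0.66). Over all tested genes 2.91% were called as deposited and 2.87% scaled, and neither gene had an unadjusted p under 0.05. Without Pdgfra-tdT saline mouse 3, Bax was called on deposited FPKM, at 2.14 (adjusted p = 0.0160), and the calls over all genes went from 237 to 2397 of 8153. On scaled FPKM Bax (1.95, adjusted p = 0.00658) and Cdkn1a (1.0, adjusted p = 0.0437) were then both called, with 3472 of all 10280 genes against 295. Trp53 did not pass the filter, but all 4 Acta2-tdT saline mice lay above all 4 Pdgfra-tdT saline mice, on both scales. The gap was narrow, at 0.617 against 0.6 FPKM as deposited and 0.874 against 0.832 scaled. In Pdgfra-tdT saline mice 2 and 4, Trp53 was near the receptor gauge, at 0.336 and 0.308 FPKM against 0.316 and 0.307. The share of all genes without overlap between the saline groups was not counted. Without a filter, the difference of Trp53 was 0.96 as deposited (adjusted p = 0.455) and 0.90 scaled (adjusted p = 0.381). The other 6 genes were not called without a filter either, with deposited differences of 0.68 for Gdf15, 0.34 for Ccng1, 0.01 for Mdm2, -0.06 for Trp53inp1, -0.07 for Cdkn2a and -0.42 for Cdkn2b.

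In bleomycin-treated mice, 8 of 8 tested genes were called higher in Acta2-tdT than in Pdgfra-tdT on deposited FPKM, where 71.0% of 11995 genes were. Cdkn2a was not tested. None of the 8 would have passed the filter on the Pdgfra-tdT mice alone. They entered through the group in which they were high, so the count over the tested genes is a description. The log2 differences were 3.63 for Bax, 3.58 for Cdkn1a, 3.43 for Cdkn2b, 3.33 for Trp53, 2.47 for Mdm2, 2.23 for Ccng1, 1.99 for Gdf15 and 0.96 for Trp53inp1. The median over all tested genes was 1.81. Without a filter, 8 of 9 were called, against 19.4%. After quantile normalization 1 of 8 was called, with 4185 of all 11995 genes. Without Pdgfra-tdT bleomycin mouse 5, 8 of 8 were called, with 10425 of all genes and the difference of Cdkn1a at 4.41. Cdkn2a had a difference of 0.20 without a filter (adjusted p = 0.498). On scaled FPKM 2 of 5 tested genes were called, where 27.1% of 5960 genes were called higher and the median was 0.59. These were Cdkn2b (1.03, SE 0.30, adjusted p = 0.0198) and Trp53 (1.0, SE 0.37, adjusted p = 0.0484). Of the 5 tested, only Cdkn1a would have passed the filter on the Pdgfra-tdT mice alone. The call of Trp53 was lost when any 1 mouse other than Pdgfra-tdT bleomycin mouse 5 was left out, and that of Cdkn2b without Pdgfra-tdT bleomycin mouse 6 (adjusted p = 0.0555). Without a filter 0 of 9 were called, against 1.45%, with 0.40 for Ccng1, 0.24 for Gdf15, -0.07 for Cdkn2a and -0.16 for Trp53inp1. Without Pdgfra-tdT bleomycin mouse 5, Cdkn1a (1.52, adjusted p = 0.0314) and Mdm2 (0.63, adjusted p = 0.0209) were called too, and the calls over all genes went from 2551 to 3719 of 5960. The comparisons share mice, so they are not independent of one another.

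Other genes of the p53 pathway were counted in 8 lists of 106 genes in all. The lists were written with earlier results of these data known. On scaled FPKM, the counts of tested genes stand beside 29.6% called higher and 39.7% called lower over all tested genes, and those without a filter beside 6.45% and 33.5%. The scaled receptor median given above for Trp53inp1 was also lower with bleomycin, and its part in the scaled falls of low genes such as Chek2, Mdm4, Tnfrsf10b, Bcl2 and Il6 was not tested. In Acta2-tdT, on scaled FPKM, 2 of 5 tested genes of the list of p53 targets in arrest and signalling were called higher and 0 lower. Phlda3, which restrains the kinase AKT, rose by 2.64 (SE 0.22), with levels of 2.02 to 3.16 scaled FPKM after saline and 18.7 to 27.2 after bleomycin. Plk2, a polo-like kinase, rose by 1.16 (SE 0.17), with levels of 0.683 to 1.31 and 3.15 to 4.13. Btg2 (0.42), Sesn1 (0.32) and Gadd45a (-0.41) were not called. Without a filter 4 of the 13 genes on the list were called higher and 0 lower.

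Of the p53 targets in apoptosis, 1 of 4 tested genes was called higher and 1 lower, and without a filter likewise 1 and 1 of 11. Ei24, an endoplasmic reticulum protein induced by p53, rose by 0.81 (SE 0.19), and Tnfrsf10b, the TRAIL death receptor, fell by 1.40 (SE 0.15). Tnfrsf10b was also lower as deposited, at 1.46 to 2.03 FPKM with saline and 0.292 to 1.29 FPKM with bleomycin, a log2 change of -0.70 (SE 0.21). Fas (0.10) and Aen (0.54) were not called after scaling, while Aen was at 3.11 (SE 0.40) as deposited. Among targets in DNA repair and metabolism only Ak1 and Dcxr passed the filter, and Ak1 was called higher at 1.08 (SE 0.33), with overlapping levels of 0.251 to 1.76 and 1.22 to 4.19 scaled FPKM. Without a filter 2 of 11 genes on this list were called higher and 2 lower. On deposited FPKM, Ak1 rose by 3.59 (SE 0.51) and Dcxr by 3.55 (SE 0.57). Both tested upstream regulators were lower after scaling, Chek2, a checkpoint kinase, by -0.93 (SE 0.13) and Mdm4, a partner of MDM2 that binds p53, by -0.91 (SE 0.19), and without a filter 4 of 13 were lower and 0 higher. As deposited, Chek2 overlapped, at 1.0 to 1.48 FPKM with saline and 0.877 to 2.59 FPKM with bleomycin. Mdm4 was at 1.12 to 2.48 FPKM with saline and 3.80 to 5.53 FPKM with bleomycin as deposited, so its direction depended on the scale, as for Trp53inp1. On that scale, Kat5 (2.0, SE 0.42) and Hipk2 (1.79, SE 0.19), which modify p53, had the largest rises of the regulators.

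In the list of the p53 family and the Ras-Arf-Rb axis, on which the INK4 proteins act, 5 of 9 tested genes were called higher and 2 lower, and without a filter 4 of 20 were higher and 4 lower. Cdk4, the kinase inhibited by p15Ink4b and p16Ink4a, rose by 2.23 (SE 0.30) and its partner Ccnd1 by 1.90 (SE 0.18), as scaled values. The kinase inhibitors Cdkn1c (-1.33, SE 0.19) and Cdkn1b (-0.81, SE 0.26) were lower on this scale only. As deposited, the mean of Cdkn1c was 3.28 FPKM with saline and 5.90 FPKM with bleomycin, and Cdkn1b was at 1.09 to 4.28 FPKM and 3.84 to 8.39 FPKM. All 9 tested proliferation genes were called higher, such as Cdk1 (1.78, SE 0.22) and Rrm2 (1.65, SE 0.17), and without a filter 10 of 12. As deposited, Cdk1 rose by 4.33 (SE 0.38) and Birc5 by 4.26 (SE 0.40). Cdkn1a, Cdkn2b and these 9 proliferation genes were thus higher in the same libraries of sorted cells. In the BCL2 family, to which Bax belongs, Bok, another pore-forming member, rose by 2.28 (SE 0.20) and Bcl2, which blocks apoptosis, was lower at -0.96 (SE 0.11), with 4 of 6 tested genes not called, and without a filter 1 of 12 was higher and 2 lower. As deposited, Bcl2 was not lower, at 0.888 to 1.68 FPKM with saline and 1.32 to 2.70 FPKM with bleomycin. Bok rose by 5.05 (SE 0.35) on that scale and Bad, which binds BCL2 proteins, by 3.62 (SE 0.52).

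Of the senescence-associated genes, 5 of 8 tested genes were called higher and 1 lower after scaling, and without a filter 5 of 14 were higher and 2 lower. Mmp12, a macrophage elastase, rose by 2.25 (SE 0.46) and Igfbp7, a secreted binding protein of insulin-like growth factors, by 1.75 (SE 0.29). Il6, an interleukin, was lower at -1.27 (SE 0.10), with deposited values of 1.02 to 1.99 FPKM against 0.169 to 1.15 FPKM. Mmp12 is made by macrophages, whose markers were higher in the same mice, and their part in its rise was not tested. On deposited FPKM, from 6 of 7 to 11 of 11 tested genes of each list were called higher, beside the 70.4% of all genes, and Tnfrsf10b and Il6 were called lower. Many of these genes passed the filter through the bleomycin mice. Without a filter the counts ran from 5 of 11 for DNA repair and metabolism to 12 of 12 for proliferation, with 10 of 13 for arrest and signalling, beside 23.8% of all genes. The deposited groups of Il6 overlapped, and without a filter its list had 0 genes called lower. In Pdgfra-tdT mice, limma called 0 genes of every list on either scale, where 1 to 6 genes of a list were tested and 0.124% and 0.106% of all genes were called.

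**Figure D4:**
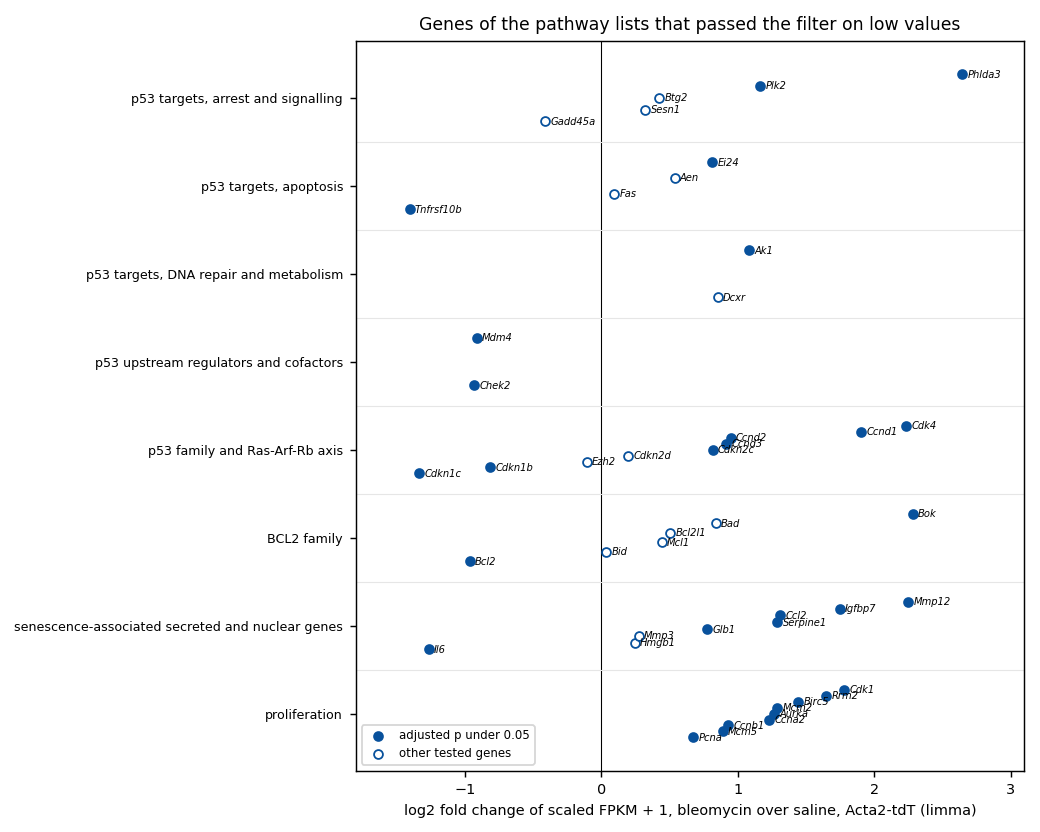
Log2 fold change of scaled FPKM, bleomycin over saline in Acta2-tdT, for each gene of the 8 pathway lists that passed the filter (points; filled, adjusted p under 0.05 by limma). All 9 tested proliferation genes are filled and above 0, and Phlda3, Bok, Mmp12 and Cdk4 are the farthest to the right.

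The genes whose scaled log2(FPKM + 1) varied most like that of Cdkn1a over the 16 mice, among 7348 protein-coding genes, were Ywhab (Pearson r = 0.992), Necap2 (r = 0.982) and Ptcd1 (r = 0.980). For Mdm2 they were Cnot10 (r = 0.950), Cyfip1 (r = 0.922) and Exosc1 (r = 0.921). For Gdf15 the closest were less alike, with Ptpra at r = 0.791, Gadd45b at r = 0.778 and Pygl at r = 0.777. These are descriptions over mice that share groups, libraries and the scaling factor, picked as the highest of many.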

How the data were processed

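RNA of sorted tdTomato-positive lung cells from 16 mice, 4 in each of 4 groups taken from the labels, was made into SmartSeq2 libraries. The authors aligned reads to mm10 (GRCm38) with TopHat2 2.1.1 and Bowtie2 and deposited FPKM per gene from Cufflinks 2.1.1; the scaling described next was added here. The depth is unknown, because FPKM carry no counts. The 49534 rows were summed to 49452 genes, and 15 genes whose status was other than OK were left out of the tests. Scaled FPKM set the sum over 21961 nuclear protein-coding genes to its median over the mice. No pair of mice had identical values.

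Tests were run on log2(FPKM + 1) with limma 3.58.1 (eBayes with trend) in R 4.3.3, with Benjamini-Hochberg adjustment over all tested genes and a threshold of 0.05. Fold changes understate changes of low genes because of the pseudocount. The alternatives were another pseudocount, no or a stricter filter, all mice in 1 fit, sample quality weights, quantile normalization, other scalings, a replicate block and leaving out each mouse. The procedure was tested on simulated data. Values were read with Python 3.11.15 and pandas 2.3.3, and plots were drawn with matplotlib 3.10.9. Promoter windows are from RefSeq on GRCm38.p6. The members and the lists were chosen with earlier results of these data known. All 9 genes are named in every comparison, from the fit without a filter where they did not pass it. Of each pathway list, up to 2 called genes with the largest rise and 2 with the largest fall and no overlap of the groups are named, and the 3 genes most like Cdkn1a, Mdm2 and Gdf15. Other list genes are named as the rest of a small tested list, after their values were seen.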

Additional observations from a re-analysis of the deposited data

Results flagged for a closer look

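In each group of 4, the highest and the lowest mouse were screened by Dixon's criterion, which normally distributed values meet by chance in about 1 of 20 groups. Of 72 groups of 4 values screened, 15 met it. The values were not log-transformed, and each gene was screened on both scales. The groups of values were therefore not independent, and the 15 cannot be set against that rate. Most were Pdgfra-tdT saline mouse 3, with Cdkn1a at 12.6 FPKM (others 0.865 to 1.13) and 10.7 scaled, Mdm2 at 3.30 and 2.81 scaled, Bax at 15.9 and 13.5 scaled, Trp53inp1 at 2.62 and 2.23 scaled, and Cdkn2b at 2.38 FPKM. Pdgfra-tdT bleomycin mouse 5 stood apart for Cdkn1a at 47.9 FPKM, Bax at 65.2 FPKM and Ccng1 at 1.5 FPKM, and for none of the 9 genes after scaling. In these libraries the endothelial markers summed to 612 and 561 scaled FPKM, and their part in the values was not tested. In Pdgfra-tdT saline mouse 1, Ccng1 was low at 0.147 FPKM. Among the Acta2-tdT saline mice, Cdkn2a was above 0 only in mouse 3, at 0.0958 FPKM and 0.101 scaled.

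The response to bleomycin differed between the lines by limma's interaction term on deposited FPKM, Acta2-tdT minus Pdgfra-tdT, for Trp53 by 2.37, for Mdm2 by 2.47, for Ccng1 by 1.88 and for Cdkn2b by 3.84 on the log2 scale. Of all genes 36.6% were called higher by this term, with a median difference of 1.05, and without a filter Trp53 was not called (adjusted p = 0.0517). After scaling Trp53, Mdm2 and Cdkn2b were not called by this test, and Ccng1 was fitted only without a filter (0.12, adjusted p = 0.838).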

How the results depend on the processing

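In Acta2-tdT, the calls of bleomycin against saline held in each of the 8 refits without 1 mouse, for all 8 called genes as deposited and for all 5 called higher on scaled FPKM. With a mean FPKM of at least 5, fewer genes were tested, and 5 of 5 were called as deposited (5069 of all 6517) and 2 of 2 scaled (1606 of 3199), while a fit of all 16 mice called 3 of 5 scaled (4202 of 7996). After quantile normalization 6 of 8 were called in Acta2-tdT (8794 of all 12523 genes), Gdf15 was no longer called (0.65, adjusted p = 0.157), and Trp53inp1 turned to -0.19 in Acta2-tdT and to -0.32 between the lines with bleomycin; the cause was not tested. Sample quality weights gave 2 called genes in Pdgfra-tdT scaled (3587 of all 9433), 1 between the lines with saline (2715 of 8153; scaled 2, with 4190 of 10280), 4 between the lines with bleomycin scaled (3593 of 5960) and 7 for the interaction (10668 of 16605). Leaving out 1 mouse gave 0 to 1 called genes between the lines with saline (88 to 2397 of all 8153; scaled 0 to 2, with 128 to 3472 of 10280), 0 to 4 with bleomycin scaled (1828 to 3719 of 5960) and 3 to 7 for the interaction (5239 to 9330 of 16605). Between the lines with bleomycin, a mean of at least 5 gave 5 (4726 of all 6553) and quantile normalization 1 (4185 of 11995). Scaled, this comparison gave 1 of 5 with a pseudocount of 0.1 (2190 of all 5960), 0 of 9 without a filter (1295 of 40888), 0 of 2 with a mean of at least 5 (722 of 3038), 7 of 7 when scaled to all genes (5664 of 7969) and 1 of 5 by the median ratio (2696 of 7161). The interaction gave 2 of 8 with a pseudocount of 0.1 (3463 of all 16605), 1 of 3 with a mean of at least 5 (1644 of 5700), 1 of 8 after quantile normalization (1595 of 16605) and, scaled to all genes, 1 of 7 (1351 of 14662). Samples with the same number in the 2 lines correlated between -0.31 and 0.16 in their deviations, so the numbers were not taken as pairs. The replicate block was fitted between the lines, where 1 of 5 was called with bleomycin on scaled FPKM (2154 of all 5960, against 2551 without it), Trp53 had an adjusted p = 0.110, and no other call among the 9 genes changed. Leaving out both Pdgfra-tdT mice with the largest sums, chosen after seeing the data, added Cdkn1a (3.15, adjusted p = 0.00774) and Gdf15 (1.57, adjusted p = 0.0314) to the interaction, so 6 of 8 were called (9088 of all 16605, against 6605).

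Counts over all genes ranged over the alternatives from 5069 to 15415 (10848 with the settings of the report) in Acta2-tdT and from 1606 to 16931 scaled (5542). In Pdgfra-tdT they ranged from 2 to 548 (9) and from 4 to 3587 scaled (10), between the lines with saline from 36 to 2715 (237) and from 56 to 4190 scaled (295), with bleomycin from 4185 to 11028 (9553) and from 722 to 5664 scaled (2551), and for the interaction from 1595 to 10668 (6605) and from 130 to 2361 scaled (271). Levels under about 0.3 FPKM lay near the receptor genes except in Acta2-tdT bleomycin, Pdgfra-tdT saline mouse 3 and Pdgfra-tdT bleomycin mouse 5, where the receptor medians were lower. The counting error is unknown because FPKM carry no read counts.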
